A study of Sus scrofa with 6 samples.

Results

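The genes described here encode the subunits of the proteasome and the chaperones and activators that bind it. They were the rows whose Ensembl identifier is paired with a pig symbol made of PSM, a letter from A to G and a number, with at least 10 counts summed over the 6 libraries. Of 25149 rows, 29 matched by symbol and 25 of these had the minimum. Of the 25, 22 encode parts of the particle or its helpers in ordinary cells, 2 encode forms known from other cell types (PSMA8, PSMB11), and PSMC3IP is a meiotic recombination factor that the symbol alone brought in. A further 21 symbols of the same form, among them PSMB5, PSMB6 and PSMB10, were not matched to a row and are not analysed here.

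The data are bulk RNA sequencing counts from neonatal pig Sertoli cells (NPSC), the somatic nurse cells of the testis tubule, taken from wild-type Duroc-Landrace piglets in the first days of life, with testes pooled by litter. Baseline NPSC (3 libraries) were kept in DMEM with fetal bovine serum and received more medium, and complement NPSC (3 libraries) were kept for 90 min in equal parts of that medium and pooled human serum whose complement was active. No culture with heat-inactivated human serum was sequenced, so complement and the other contents of serum cannot be told apart. The libraries of a group came from separate plates. The testes came from 3 litters, and nothing says whether equally numbered plates held the same cell preparation.

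The proteasome is the barrel-shaped protease that degrades proteins tagged with ubiquitin. Its core particle is built from alpha rings, which gate the entrance, and beta rings, which hold the cutting sites, and its regulatory particle has a base of ATPases that unfold the substrate and a lid that removes ubiquitin. Inflammatory signals exchange the catalytic beta subunits for the immunoproteasome forms PSMB8, PSMB9 and PSMB10, which favour peptides for presentation on MHC class I.

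Counts on genes came to between 3641518 and 8371923 per library and were lower in every complement NPSC library than in every baseline NPSC library. Levels are given as CPM, which divides counts by a library size adjusted by TMM. Counts on 48 olfactory receptor genes, which Sertoli cells are not known to use, served as a measure of background. Their density, scaled by the unadjusted library total, was 2.15, 1.20 and 1.18 CPM per kb of exon in baseline replicates 1, 2 and 3 and 4.01, 4.43 and 1.51 in complement replicates 1, 2 and 3, and multiplying it by the exon length gives what is called the expected background of a gene. Sertoli cell markers were present, with SOX9 at a mean of 228 and CLU at a mean of 4694 CPM in baseline NPSC, and AMH was not matched. Markers of other testis cells were present too, with baseline means of 1630 CPM for ACTA2 (peritubular myoid cells), 233 CPM for KDR (endothelium), 798 CPM for INSL3 (Leydig cells) and 29.5 CPM for CD68, the highest of 7 leukocyte markers. Germ cell markers summed to 231 to 365 CPM in baseline NPSC, mostly KIT (mean 278 CPM), with DDX4 at a mean of 3.86 CPM.

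None of the 25 proteasome genes differed between complement NPSC and baseline NPSC at an adjusted p under 0.05 in edgeR's quasi-likelihood F-test. All 22 particle genes had a log2 fold change (LFC, complement over baseline) below 0, from −0.70 (PSMG3) to −0.09 (PSMD5), with a median of −0.28. Of the 22, 1 was above 0 with upper-quartile normalization (PSMD5, 0.018), 8 with the expected background subtracted and 10 with the olfactory receptor density as a covariate. Over all 25 genes the median was −0.24 and 22 were below 0, while the median of the 17512 genes tested was 0.02 and 48.5% of them were below 0. The number of proteasome genes called was 0 by edgeR, beside 18 of all genes (0.103%), of which 16 were higher and 2 lower. With upper-quartile normalization in place of TMM, 21 genes were higher and 0 lower, the median of all genes moved to 0.13 and that of the proteasome genes to −0.13.

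At an unadjusted p under 0.05, edgeR gave 4 proteasome genes (PSMA3, PSMD4, PSMD3 and PSMD6), beside 15.2% of all genes. Over the 25 genes, the smallest adjusted p by edgeR was 0.307 (PSMA3) and the largest 0.818 (PSMD5). With the expected background subtracted, the LFCs of the 4 genes were −0.34 (PSMA3), −0.19 (PSMD4), −0.28 (PSMD3) and −0.23 (PSMD6). With the olfactory receptor density as a covariate they were −0.14 (PSMA3), −0.30 (PSMD4), −0.19 (PSMD3) and −0.17 (PSMD6). The Wald test of DESeq2 gave an adjusted p to 24 of the genes, all but PSMA8, and called 0 of them, beside 0.424% of all genes. By that test 3 had an unadjusted p under 0.05, and the smallest adjusted p was 0.270 (PSMD3). For 22 of the 25 genes the 95% interval of the LFC lay inside a 2-fold change in either direction, beside 55.7% of all genes, and the exceptions were PSMG3, PSMA8 and PSMB11. Inside a 1.5-fold change lay 4 of the 25, beside 12.3% of all genes, so smaller differences could not be resolved for most of them.

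**Figure D1:**
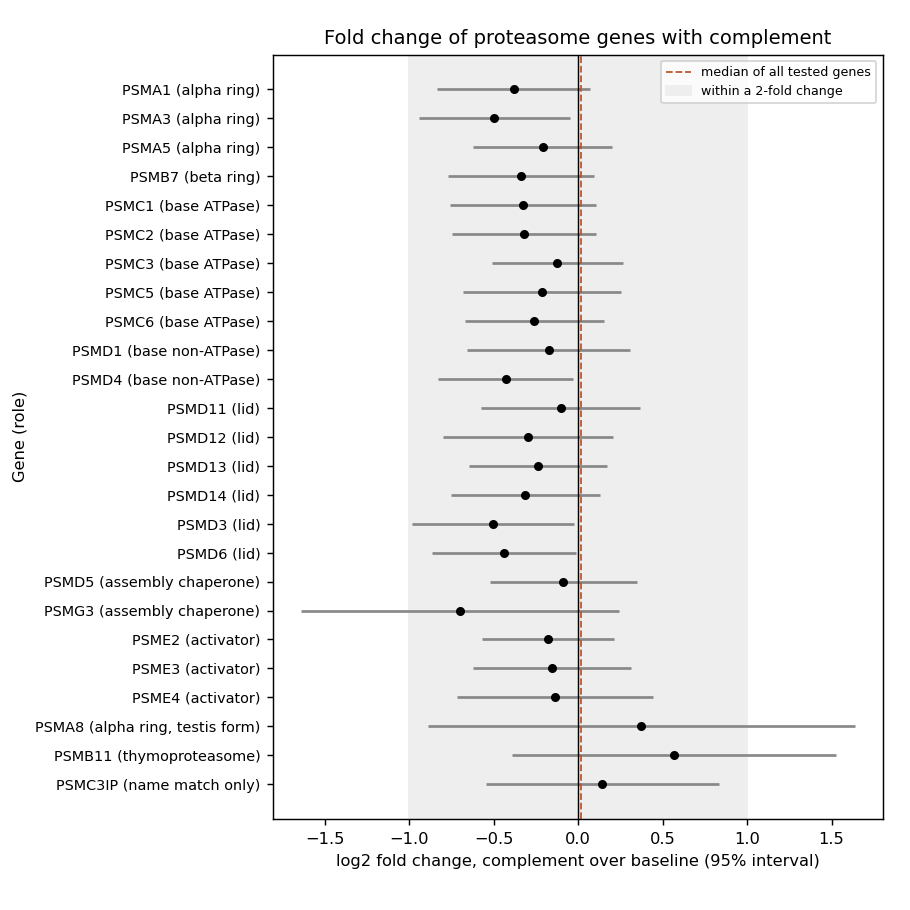
Log2 fold change of each of the 25 proteasome genes, complement NPSC over baseline NPSC, with its 95% interval from edgeR (3 libraries per group), the median of all tested genes (dashed, 0.02) and the range of a 2-fold change (shaded). The 22 particle genes lie below 0 in this fit (1 was above 0 with upper-quartile normalization, 8 with background subtracted and 10 with the density covariate), and the intervals of PSMG3, PSMA8 and PSMB11 run past a 2-fold change.

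Most of the 22 particle genes were high or low in the same libraries, with PSMG3 and PSME2 as exceptions (both lowest in complement replicate 3), and the libraries did not separate by condition. Measured as the median over these genes of log2 CPM minus the mean of the gene, baseline replicates 1, 2 and 3 lay at −0.07, 0.21 and 0.32 and complement replicates 1, 2 and 3 at −0.31, −0.20 and 0.07. All 22 genes were above their own mean in baseline replicates 2 and 3, 17 were above it in complement replicate 3, 5 in baseline replicate 1, 2 in complement replicate 2 and 1 in complement replicate 1. Complement replicate 3 therefore lay above baseline replicate 1, and the groups overlapped.

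The order of the libraries in this measure ran opposite to that of the olfactory receptor density, except that complement replicate 2, with the highest density (4.43 CPM per kb), lay above complement replicate 1. When the expected background was subtracted from the counts of all genes, the filter, library sizes and TMM scaling were computed again. The median LFC of the proteasome genes was then −0.043, and 14 of the 24 genes tested were below 0. How much of this change came from the new scaling and how much from the counts removed from these genes was not tested. With the density as a covariate the median LFC was −0.029 and 15 of 25 genes were below 0. In both fits 0 proteasome genes were called, beside 0.206% and 0.36% of all genes. The density was highest in complement replicates 1 and 2, so with 6 libraries density and condition cannot be told apart. The summed level of the Sertoli cell markers differed without overlap, between 5006 and 7729 CPM in baseline NPSC and between 3278 and 3913 CPM in complement NPSC. Most of this sum was CLU, at 3592 to 5996 CPM in baseline NPSC, and of the 9 markers tested 5 were lower without overlap (beside 8.14% of all genes), while DHH (LFC 0.63) and DMRT1 (LFC 0.12) had LFCs above 0. Leydig cell markers were lower as well, between 936 and 1139 CPM in baseline NPSC and between 713 and 760 CPM in complement NPSC, with all 3 tested genes lower without overlap, as was 1 of 7 leukocyte markers (TYROBP, LFC −1.06). The part of these lists in the result was not tested, and in bulk libraries fewer cells of a type and less RNA per cell cannot be told apart.

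**Figure D2:**
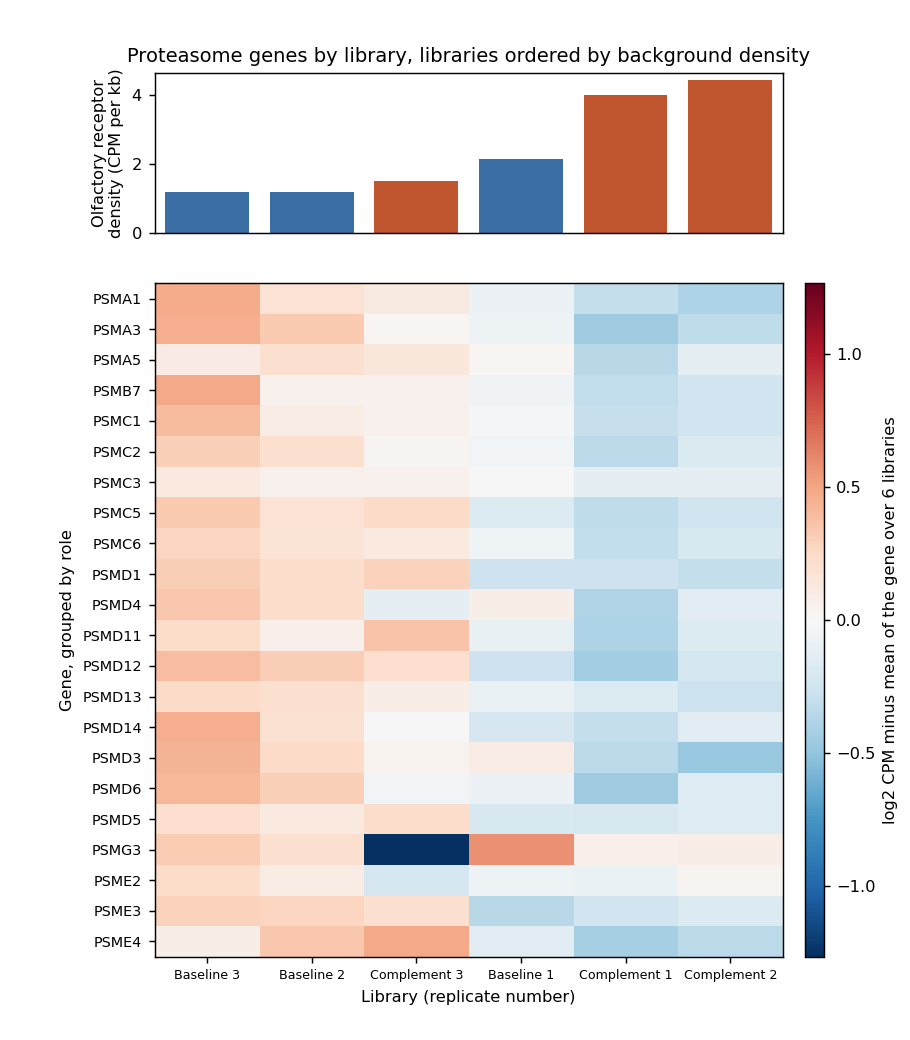
Upper panel, density of counts on 48 olfactory receptor genes in CPM per kb of exon (blue, baseline NPSC; orange, complement NPSC), and lower panel, log2 CPM of each of the 22 particle genes minus its mean over the 6 libraries, with libraries ordered by the density. Baseline replicates 3 and 2 are red throughout, and complement replicates 1 and 2 are blue for all but 1 and 2 of the genes.

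As a share of all counts on genes, the 25 proteasome genes took 0.195%, 0.213% and 0.228% in baseline NPSC (mean 0.212% ± 0.0162, SD, n = 3) against 0.187%, 0.197% and 0.205% in complement NPSC (mean 0.197% ± 0.00876, SD, n = 3). The groups overlapped. These shares rest on 7188 to 19081 counts per library, of which the expected background was 2.36% to 5.00% in baseline NPSC and 3.35% to 10.2% in complement NPSC.

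Groups did not overlap for 3 genes, all lower in complement NPSC (PSMD3, PSMD4 and PSMG3), beside 8.14% of all genes, and for 0 genes that were higher, beside 8.95% of all genes. With 3 libraries against 3, the smallest exact two-sided permutation p is 0.1. Without complement replicate 3, which lies nearest to the baseline libraries, 16 were lower (26.8% of all genes) and 2, PSMA8 and PSMB11, were higher (30.2% of all genes). Without baseline replicate 1, 14 were lower (20.1% of all genes). In the edgeR fit without complement replicate 3, PSMA3 (LFC −0.68, adjusted p = 0.0473) and PSMD3 (LFC −0.70, adjusted p = 0.0411) passed the threshold as lower, beside 3.80% of all genes.

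The alpha ring was represented by PSMA1, PSMA3 and PSMA5, whose products form part of the gated outer ring of the core. PSMA3 (ENSSSCG00000005072, chr1:208247111-208275880 in the unnamed build of the files) was at 84.2, 111 and 121 CPM in baseline NPSC and at 64.3, 70.1 and 89.6 CPM in complement NPSC. Only complement replicate 3 reached into the baseline range. Its LFC was −0.50 (SE 0.210, 95% interval −0.94 to −0.05, adjusted p = 0.307 by edgeR).
PSMA1 was at 85.4, 102 and 125 CPM in baseline NPSC and at 73.2, 68.5 and 97.8 CPM in complement NPSC, with an LFC of −0.38. That LFC was −0.16 with background subtracted, −0.015 with the density covariate and −0.59 to −0.25 when 1 library was left out. PSMA5 was at 81.8, 92.6 and 85.9 CPM against 62.5, 73.5 and 88.8 CPM, the smallest difference of the 3 (LFC −0.21). In both genes complement replicate 3 overlapped the baseline range.

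PSMB2, PSMB3, PSMB4, PSMB5 and PSMB6 of the constitutive core were not matched to a row. Of its matched beta subunits, PSMB1 and PSMB7, only PSMB7 reached the count minimum. It carries the trypsin-like cutting site of the constitutive core, the position that PSMB10 takes in the immunoproteasome. PSMB7 (ENSSSCG00000005590, chr1:298943393-299006601) was at 73.9, 78.8 and 106 CPM in baseline NPSC and at 61.2, 64.2 and 79.2 CPM in complement NPSC. Complement replicate 3 lay just above baseline replicate 2, and the LFC of −0.34 (SE 0.204, 95% interval −0.77 to 0.10) had an adjusted p of 0.403 by edgeR. The LFC was −0.18 without baseline replicate 3 and −0.11 with background subtracted.

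PSMB1, a structural beta subunit, and the immunoproteasome genes PSMB8 and PSMB9 had 0, 1 and 1 counts over all 6 libraries, and so did not reach the minimum. These values give no expression level, because each is far below the expected background of 68.9, 75.7 and 63.2 counts. PSMB1 lies on the unplaced scaffold GL894396.1, and all 2451 rows on such scaffolds had 0 counts in all 6 libraries, against 839 of 22698 rows (3.7%) on chromosomes. PSMB8 (ENSSSCG00000026951, chr7:29269958-29273035) and PSMB9 (ENSSSCG00000001463, chr7:29283699-29288735) flank TAP1, a subunit of the transporter that carries peptides to MHC class I. TAP1 (chr7:29274670-29283296) had 2 counts beside 170.4 expected from background. The next gene on the same side as PSMB8, TAP2, had 191 counts beside 195.5 expected, and SLA-DQB1, an MHC class II gene further along, had 343 beside 58.7. A stretch of 3 neighbouring rows thus held fewer counts than the olfactory receptor background, and the cause was not tested.

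PSME1, the partner of PSME2 in the interferon-inducible activator ring, also had 0 counts, beside 74.8 expected. All of its 1002 exon bases overlap exons of EMC9 on the opposite strand, a row with 186 to 262 counts per library. The files do not say whether strand was used, and reads of the pair cannot be told apart without it. PSME1 and PSME2 share 8 of 11 exon lengths, and PSME3 shares 6 with each. Equal exon lengths do not show equal sequence, and whether reads were divided between these paralogs was not tested. Because PSMB8 and PSMB9 gave no level and PSMB5, PSMB6 and PSMB10 were not matched, no ratio of immunoproteasome to constitutive subunits could be formed.

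**Figure D3:**
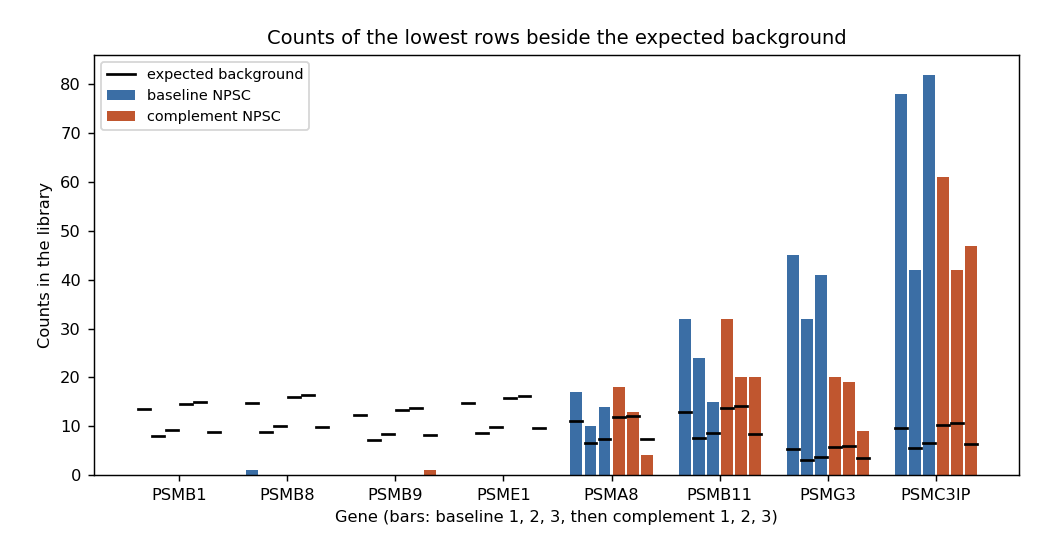
Counts per library (bars, baseline NPSC in blue and complement NPSC in orange) of the 4 matched rows under the count minimum and of the 4 lowest genes above it, each with its expected background (black line). PSMB1, PSMB8, PSMB9 and PSME1 lie below the line in every library, PSMA8 lies near it, and PSMC3IP lies above it in every library.

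PSMA8 replaces the fourth alpha subunit in male germ cells at meiosis. It had 17, 10 and 14 counts in baseline NPSC against 18, 13 and 4 in complement NPSC. Background would give 74.0% of its counts, so its level of 3.02 CPM per kb (mean of 6 libraries) is close to background. Its LFC of 0.37 had a 95% interval from −0.89 to 1.64.

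PSMB11, the catalytic subunit of the proteasome of thymus epithelium, had 32, 24 and 15 counts in baseline NPSC against 32, 20 and 20 in complement NPSC, of which background would give 45.8%. The groups overlapped, with an LFC of 0.57 and a 95% interval from −0.39 to 1.52. PSMC3IP had 42 to 82 counts in each library, with 13.9% expected from background and an LFC of 0.14. These were the only 3 of the 25 genes with an LFC above 0.

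The base ATPases, which form the ring that unfolds substrates, were represented by 5 genes with LFCs from −0.33 to −0.12. PSMC1 had the lowest, with 109, 118 and 146 CPM in baseline NPSC against 89.7, 92.8 and 115 CPM in complement NPSC. PSMC2 was close to it at 114, 135 and 144 CPM against 92.6, 102 and 120 CPM (LFC −0.32). With background subtracted PSMC2 was the lower (LFC −0.108 against −0.098), as with the density covariate (−0.083 against −0.077). In both genes complement replicate 3 alone lay above the lowest baseline library.
PSMC3 had the LFC nearest to 0 in the ring (−0.12, SE 0.183, 95% interval −0.51 to 0.27, adjusted p = 0.711 by edgeR). It was at 96.1, 99.4 and 104 CPM in baseline NPSC and at 88.4, 87.8 and 99.2 CPM in complement NPSC. PSMC3 had the steadiest level of all 25 genes, with the highest library at 1.19 times the lowest. PSMC5 (LFC −0.21) and PSMC6 (LFC −0.26) overlapped between groups. For PSMC5, 1058 of 2659 exon bases (39.8%) overlap a row on the opposite strand, so its counts are uncertain.

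Of the base subunits that are not ATPases, PSMD4 is a receptor for ubiquitin chains and PSMD1 is a scaffold to which receptors and substrate shuttles bind. PSMD4 (ENSSSCG00000006628, chr4:107246979-107257425) was at 85.5, 95.4 and 104 CPM in baseline NPSC and at 62.5, 73.5 and 75.0 CPM in complement NPSC. All complement NPSC libraries lay below all baseline NPSC libraries. The mean was 94.8 ± 9.03 CPM in baseline NPSC and 70.4 ± 6.81 CPM in complement NPSC (SD, n = 3), for an LFC of −0.43 (SE 0.187, 95% interval −0.83 to −0.03, adjusted p = 0.311 by edgeR). PSMD1 was at 86.0, 121 and 128 CPM against 86.1, 84.0 and 127 CPM, and its groups overlapped widely (LFC −0.18).

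The lid was represented by 6 genes, with LFCs from −0.50 (PSMD3) to −0.10 (PSMD11). PSMD3 (ENSSSCG00000017489, chr12:22802738-22818570), a scaffold subunit of the lid, was the most abundant proteasome gene per exon length. It was at 201, 223 and 254 CPM in baseline NPSC (mean 226 ± 26.7, SD, n = 3) and at 149, 135 and 195 CPM in complement NPSC (mean 160 ± 31.4, SD, n = 3). Every complement NPSC library lay below every baseline NPSC library, with complement replicate 3 close to baseline replicate 1. The LFC was −0.50 (SE 0.225, 95% interval −0.98 to −0.02, adjusted p = 0.314 by edgeR).
PSMD6, another lid scaffold, was at 41.0, 53.6 and 58.1 CPM in baseline NPSC and at 31.6, 38.6 and 42.2 CPM in complement NPSC, with overlap of 1 pair of libraries (LFC −0.44, adjusted p = 0.320 by edgeR). PSMD14, the deubiquitinase that removes ubiquitin chains from substrates, was at 35.1, 46.6 and 56.0 CPM against 32.9, 37.2 and 40.6 CPM (LFC −0.31). The LFC of PSMD14 was −0.12 with background subtracted, −0.029 with the density covariate and −0.49 to −0.16 when 1 library was left out. PSMD11, a subunit that bridges the lid and the core, was at 95.2, 106 and 119 CPM against 77.5, 89.9 and 131 CPM. Its highest library was therefore complement replicate 3. PSMD12 (LFC −0.30) and PSMD13 (LFC −0.24) overlapped between groups.

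PSMG3 and PSMD5 encode assembly chaperones, which leave the finished particle. PSMG3, which helps to build the alpha ring, had 45, 32 and 41 counts in baseline NPSC against 20, 19 and 9 in complement NPSC. That is 6.52, 4.95 and 5.40 CPM against 4.45, 4.53 and 1.56 CPM, without overlap between groups. Its LFC of −0.70 had an SE of 0.442, a 95% interval from −1.64 to 0.24 and an adjusted p of 0.419 by edgeR, and this SE was the largest of the 22. Without complement replicate 3 the LFC was −0.35, nearer to 0 than those of PSMD3 and PSMA3 in that fit, and with the olfactory receptor density as a covariate it was −1.59 (adjusted p = 0.386 by edgeR). PSMD5, which binds base ATPases before the particle is complete, was at 30.3, 37.6 and 40.1 CPM against 30.0, 30.8 and 40.5 CPM (LFC −0.09, 95% interval −0.52 to 0.35).

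The activators PSME2, PSME3 and PSME4, which open the core particle without ubiquitin, had LFCs between −0.18 and −0.14, which turned to 0.065, 0.082 and 0.034 with background subtracted. PSME4, the activator that takes part in histone removal during spermatogenesis, was at 236, 328 and 273 CPM in baseline NPSC and at 193, 205 and 363 CPM in complement NPSC. Complement replicate 3 had its highest level and the other complement NPSC libraries its lowest levels. PSME2 was at 43.2, 48.3 and 53.1 CPM against 42.7, 46.3 and 38.9 CPM (LFC −0.18), with complement replicate 3 the lowest. PSME3, the nuclear activator, was at 64.8, 100 and 102 CPM against 69.9, 73.5 and 95.9 CPM (LFC −0.16), with baseline replicate 1 the lowest.

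Per exon length, the level of the particle genes ran from 12.4 CPM per kb (PSMG3) to 87.0 CPM per kb (PSMD3) as the mean of 6 libraries. The median of all tested genes was 10.4 CPM per kb, and 56.7% of tested genes were lower than PSMG3. After PSMD3 came PSMA5 (80.9), PSMB7 (74.4), PSME3 (73.6) and PSMD11 (72.1 CPM per kb), which thus belong to different parts of the particle. The lowest levels were those of PSMA8 (3.02), PSMB11 (4.89), PSMG3, PSMC3IP (15.4) and PSMD5 (22.0 CPM per kb), so that both assembly chaperones lay below every structural subunit. PSMC3 followed at 26.0 CPM per kb, with a single exon of 2258 bases in an annotated length of 3681, and a level per length depends on such exons.

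**Figure D4:**
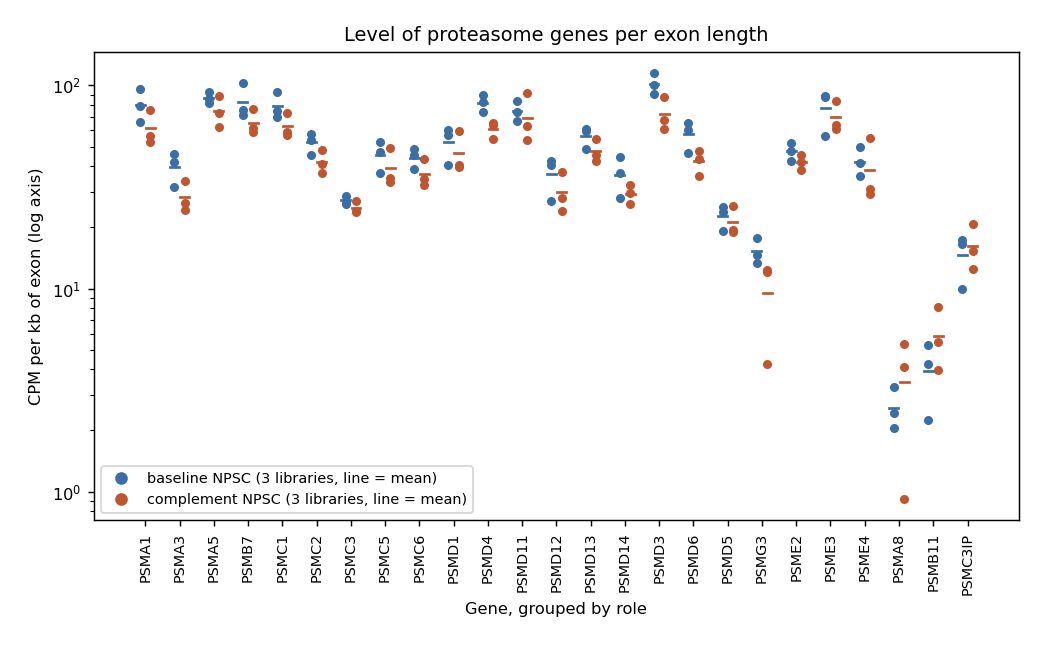
Level of each of the 25 proteasome genes in CPM per kb of exon on a log axis, in each baseline NPSC library (blue) and complement NPSC library (orange), with the mean of each group as a line. The structural subunits lie between 26.0 (PSMC3) and 87.0 CPM per kb (PSMD3) as means of 6 libraries, and PSMA8 and PSMB11 lie lowest.

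Set against each other within a library, the particle genes kept much the same proportions. Alpha ring genes took 13.2%, 13.0% and 13.3% of particle counts in baseline NPSC against 12.4%, 12.5% and 12.2% in complement NPSC. Lid genes took 28.8%, 28.7% and 29.7% against 28.0%, 27.8% and 28.0%. In both groups of genes the complement NPSC libraries lay below the baseline NPSC libraries, and in both the separation was lost when 1 gene was left out. Without PSMA3 the alpha ring took 8.76%, 8.31% and 8.43% against 8.41%, 8.36% and 8.23%, and without PSMD3 the lid took 18.2%, 19.2% and 19.5% against 18.8%, 19.8% and 19.4%, with overlap in both. Base ATPase genes took 23.5% to 25.5% and activators 17.1% to 22.0% over all libraries, with overlap between conditions.

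Of the 22 genes, 2 had a lower share of particle counts in every complement NPSC library than in every baseline NPSC library (PSMD3 and PSMA3) and 1 had a higher share (PSMD5). Counts of all tested genes over the particle counts of the library were lower without overlap for 2.20% of genes and higher for 10.1%. Since the 22 genes make up the denominator themselves, these percentages are not on the same footing, and nothing particular to the 3 genes is read from so few. PSMA3 had 44.2, 47.3 and 48.6 of every 1000 particle counts in baseline NPSC against 39.9, 41.3 and 39.5 in complement NPSC. PSMD3 had 105.5, 95.2 and 101.7 per 1000 against 92.3, 79.4 and 86.0, and after subtraction of the expected background its groups overlapped. PSMD5 had 15.9, 16.0 and 16.0 per 1000 against 18.6, 18.1 and 17.9. Subtraction brought PSMD5 to 14.8, 15.5 and 15.5 against 16.7, 16.1 and 17.2 per 1000, still without overlap. PSMA3 had 43.3, 46.9 and 48.3 against 37.6, 39.2 and 38.8 per 1000 after subtraction. These genes were picked out after their values were seen, and no test was made of the shares.

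**Figure D5:**
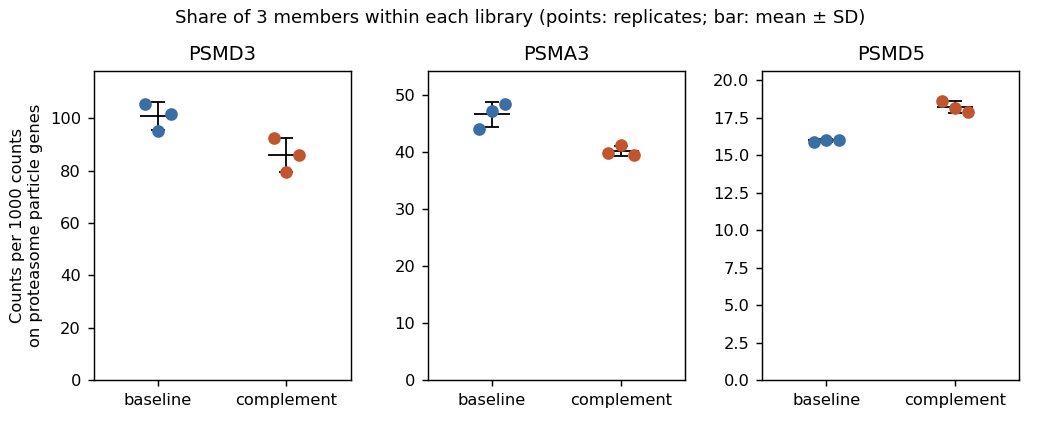
Counts of PSMD3, PSMA3 and PSMD5 per 1000 counts on the 22 particle genes in each library, with the mean and SD of each group (3 libraries), on axes that start at 0. PSMD3 and PSMA3 are lower and PSMD5 is higher in all complement NPSC libraries, with PSMD5 at 15.9 to 16.0 in baseline NPSC against 17.9 to 18.6 in complement NPSC.

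Genes that feed or control the proteasome were called in 0 cases by edgeR in each of 4 lists, beside 0.103% of all genes. Of 14 genes of ubiquitin and delivery, 10 were tested, with a median LFC of −0.37. Their LFCs ran from −0.46 for UBB, which encodes ubiquitin itself, to −0.03 for UBQLN4, a shuttle that brings tagged proteins to the proteasome. Of 13 genes of assembly factors and bound enzymes, 8 were tested, with a median LFC of −0.16, the lowest being AKIRIN2 (−0.30), which carries proteasomes into the nucleus, and the highest UCHL5 (0.17), a deubiquitinase of the base. POMP and ADRM1 of this list were not matched.

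Of 7 transcriptional regulators of subunit genes, 5 were tested, with a median LFC of −0.33. NFE2L1, the factor that raises subunit transcription when proteasome activity is short, was at 38.6, 41.2 and 48.9 CPM in baseline NPSC and at 23.6, 21.9 and 42.6 CPM in complement NPSC (LFC −0.54, adjusted p = 0.320 by edgeR). Its relative NFE2L2, the regulator of the oxidative stress response, was at 160, 161 and 145 CPM against 101, 91.6 and 149 CPM (LFC −0.45, adjusted p = 0.340 by edgeR). In both, complement replicate 3 lay with the baseline libraries. MAFF, a small partner protein of these factors, was at 34.6, 58.1 and 33.6 CPM against 58.8, 62.7 and 70.3 CPM, higher without overlap (LFC 0.61, adjusted p = 0.282 by edgeR).

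Of 11 genes of antigen processing, 7 were tested, with a median LFC of −0.25, from −0.44 for CALR, a chaperone of the peptide-loading complex, to 0.61 for IRF1. IRF1, the interferon regulatory factor that drives the immunoproteasome genes, was at 52.9, 52.3 and 61.7 CPM in baseline NPSC and at 68.3, 73.7 and 113 CPM in complement NPSC. All complement NPSC libraries lay above all baseline NPSC libraries, and the adjusted p was 0.272 by edgeR. The immunoproteasome genes themselves gave no level, as described for PSMB8 and PSMB9.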

How the data were processed

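RNA from 6 NPSC plates was sequenced by a service. The authors deposited raw read counts per gene, without normalization, with coordinates and summed exon lengths. The submitters' processing notes name Trimmomatic 0.36, STAR 2.5.2b and featureCounts of Subread 1.5.2. The genome build and strand setting are not given in the sources used here. Library totals were 3641518 to 8371923 counts.

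The main test was the quasi-likelihood F-test of edgeR 4.0.16 in R 4.3.3 (filterByExpr, TMM, glmQLFit, glmQLFTest) with condition as the factor. Benjamini-Hochberg adjustment ran over all 17512 genes with a threshold of 0.05. The fit was tested on simulated data with less spread than these libraries and no difference in background. That test therefore says little about calls in these data. Deviations used log2 CPM with a prior count of 2. Expected background was set from 48 olfactory receptor genes with 45945 bp of exon. DESeq2 1.42.0 was an alternative, and plots used matplotlib 3.10.9 in Python 3.11.15. Symbols from name tables matched 11804 of 25149 identifiers.

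Values are named for PSMB5 to PSMB10, the highest and lowest LFC in each structural group, the 10 smallest unadjusted p, the 5 highest and 5 lowest levels per kb, PSMA8, PSMB11 and PSMC3IP, and, from partner lists, NFE2L1, NFE2L2, POMP, ADRM1, TAP1 and the extremes of LFC. A few others were named after their values were seen. The genes and lists were chosen with earlier results of these data known. A planned test of immunoproteasome to constitutive ratios could not be run. The p-values measure the spread between plates, which may be technical.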

Additional observations from a re-analysis of the deposited data

How the results depend on the processing

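The median LFC of the proteasome genes stayed below 0 in every alternative run and was −0.42 to −0.17 when 1 library was left out, −0.043 with expected background subtracted and −0.029 with the olfactory receptor density as a covariate. The number of proteasome genes called lower was 0 to 2 when 1 library was left out, the number of lower genes without overlap 3 to 16 and of higher genes 0 to 2. Over all genes, the number called higher was 44 by the DESeq2 Wald test, 25 with no filter beyond 1 count, 30 with background subtracted, 60 with the covariate and 8 to 1155 with 1 library left out. The number called lower was 0 with upper-quartile normalization, 20 by the Wald test, 6 with no filter, 1 with at least 10 counts in every library, 1 with background subtracted and 0 to 700 with 1 library left out. The count of lower shares of particle counts without overlap was 1 with background subtracted and 2 to 5 with 1 library left out, and that of higher shares 2 to 4; these 2 alternatives were chosen after seeing the data. The causes were not tested.

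Replicate numbers were not taken as pairing. Correlations of same-numbered deviations were 0.456, 0.0302 and 0.482. Replicates 1 and 3 correlated best with their own number and replicate 2 did not, so whether plates were paired stays unknown. With a replicate block 1 proteasome gene was lower (PSMA3, adjusted p = 0.0372 by edgeR), beside 3.68% of all genes, with 1871 genes higher and 644 lower.

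Of the LFCs of the 25 genes under the alternatives, 317 kept direction and call, 3 became calls and 27 turned sign. With background subtracted these were PSMA5 (0.024), PSMC3 (0.050), PSMD1 (0.031), PSMD11 (0.11), PSMD5 (0.054), PSME2 (0.065), PSME3 (0.082) and PSME4 (0.034). With the covariate they were PSMA5 (0.010), PSMA8 (−1.02), PSMB11 (−0.046), PSMC3IP (−0.24), PSMC5 (0.18), PSMC6 (0.014), PSMD12 (0.16), PSMD13 (0.023), PSMD1 (0.28), PSMD11 (0.27), PSMD5 (0.23), PSME3 (0.26) and PSME4 (0.37). With upper-quartile normalization it was PSMD5 (0.018). With 1 library left out, the LFC ran from −0.080 to 0.83 for PSMA8, from −0.085 to 0.28 for PSMC3IP, from −0.38 to 0.049 for PSMD11 and from −0.52 to 0.026 for PSME4, changing sign without complement replicate 1 in each and without baseline replicate 2 in PSMC3IP. Depth limits PSMG3, PSMA8 and PSMB11, with at most 45, 18 and 32 counts per library.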
